A study of Mus musculus with 18 samples.

Results

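Airway CD24hi cells and alveolar cells sorted from the same 3 mouse lungs were compared by RNA sequencing. The members were the 6 of the 18 libraries in the series whose titles name these populations, 3 of airway CD24hi cells and 3 of alveolar cells. No measured value entered the choice of libraries, but the comparison was chosen with earlier results of these data known. The lungs were normal tissue of C57BL/6 mice with no treatment named, adult males by the methods of the study, and the labels give mouse numbers 4, 5 and 6 to the libraries 1, 2 and 3 of both groups, so that each airway library has an alveolar library from the same animal. CD24hi cells were sorted as EpCAM-positive, CD104-positive cells with high CD24, and their label calls them luminal airway cells with an enrichment of ciliated cells. Alveolar cells were sorted as EpCAM-positive cells with low CD104, a gate that does not separate type 1 from type 2 cells. EpCAM is an adhesion protein of epithelial cells, CD104 is integrin β4 (*Itgb4*) of the attachment to the basement membrane, and CD24 is a surface glycoprotein that is abundant on multiciliated cells. A further population of the same lungs, CD24lo cells of the CD104-positive gate, carries a label of club cell enrichment and is used below only to place the values within the airway. The other populations, tracheal basal stem cells (BSCs), tracheal non-basal cells and EpCAM-negative lung cells, entered the statistical fit but are not described.

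Multiciliated cells line the conducting airways and beat in a coordinated fashion to move mucus out of the lung. Their motile cilia grow from basal bodies that are made in large numbers by centriole amplification, under the control of Geminin-family regulators, E2F factors, *Myb*, the RFX factors and *Foxj1*. The axoneme of each cilium carries dynein arms, radial spokes, a central pair and nexin links, and is built by intraflagellar transport. Alveolar type 2 (AT2) cells secrete surfactant, a mixture of lipid and surfactant proteins that is stored in lysosome-related lamellar bodies, and alveolar type 1 (AT1) cells are thin cells that carry gas exchange.

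The 6 libraries held between 11241139 and 12626769 counted reads, so depth was nearly equal in both groups. Values below are read counts scaled to gene length and to TMM-scaled library size (RPKM), and a log2 difference is always CD24hi minus alveolar in an edgeR quasi-likelihood fit of all 18 libraries. The TMM factors were 1.10 to 1.12 in CD24hi and 0.881 to 0.899 in alveolar libraries, where *Sftpc* alone took 10.8 to 11.9% of all reads. In each group 1 library stood apart. In CD24hi library 1, 606 of 10287 genes lay more than 2-fold from the other CD24hi libraries, against 18 and 181 for libraries 2 and 3, and its genes of low GC content were shifted down, with a median of -0.72 on the log2 scale in the 10% of genes with the lowest GC. Alveolar library 2 held 0.433% of its reads on *Rn7sk* and *Lars2*, against 0.0185 and 0.0189% in alveolar libraries 1 and 3. Counts were therefore also taken without these libraries.

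The marker transcripts followed the labels. *Foxj1*, the transcription factor of motile ciliogenesis (Entrez gene 15223, chr11:116330704-116335499 in mm10), was at 698, 591 and 588 RPKM in the CD24hi libraries 1 to 3 and at 4.85, 4.50 and 3.60 RPKM in the alveolar libraries 1 to 3. *Sftpc*, the surfactant protein C transcript of AT2 cells (Entrez gene 20389, chr14:70520941-70524081), was at 1830.5, 823 and 855 RPKM in CD24hi and at 150136, 149929 and 168632 RPKM in alveolar libraries. The groups were far apart for both genes, with a log2 difference of 7.18 ± 0.35 (SE, adjusted p = 6.8e-12) for *Foxj1* and a log2 difference of -7.06 ± 0.42 (SE, adjusted p = 9.4e-11) for *Sftpc*. These are differences between sorted populations, so that fewer cells of a type and less RNA per cell cannot be told apart. The sort itself was visible in the transcripts of its proteins: *Itgb4* was at 47.3 ± 8.83 RPKM (SD, n = 3) in CD24hi against 0.588 ± 0.196 RPKM (SD, n = 3) in alveolar cells, while *Cd24a* reached 1103 ± 274 RPKM (SD, n = 3) in CD24hi and 39.3 ± 0.673 RPKM (SD, n = 3) in alveolar cells. *Epcam*, on which both gates were set, was at 113, 129.7 and 121 RPKM against 109, 102 and 108 RPKM and did not pass the test (adjusted p = 0.0647), though it did without CD24hi library 1 (adjusted p = 0.0162) and with RLE scaling, library size alone, a filter at 1 CPM, voom or DESeq2 (adjusted p from 4.7e-05 to 0.0483).

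The question of the comparison is how the transcriptome of an airway population enriched in ciliated cells differs from that of the alveolar epithelium. Of 17989 genes tested, 5479 (30.5%) were higher and 5652 (31.4%) lower in CD24hi cells at an adjusted p under 0.05 in edgeR's quasi-likelihood test. When a difference of more than 2-fold was required by edgeR's glmTreat, 2853 genes (15.9%) were higher and 2046 (11.4%) lower. Of all calls 49.2% were higher in CD24hi, and the split moved with the scaling, to 65.4% with library size alone, 38.8% after removal of a gene length trend and 39.3% after removal of a GC trend. The median log2 difference of all genes was -0.01 with an interquartile range from -0.73 to 0.88, and it was 0.29 with library size alone, so that small differences depend on the scaling. Leaving out CD24hi library 1 gave 5416 higher and 5853 lower genes, and leaving out both this library and alveolar library 2 gave 5175 and 5581. Genes are described below by 35 lists with 665 different genes, of which 661 passed the filter on low counts. The counts of every list stand beside 30.5% higher and 31.4% lower over all genes tested, or 15.9% and 11.4% where more than 2-fold is stated.

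**Figure D1:**
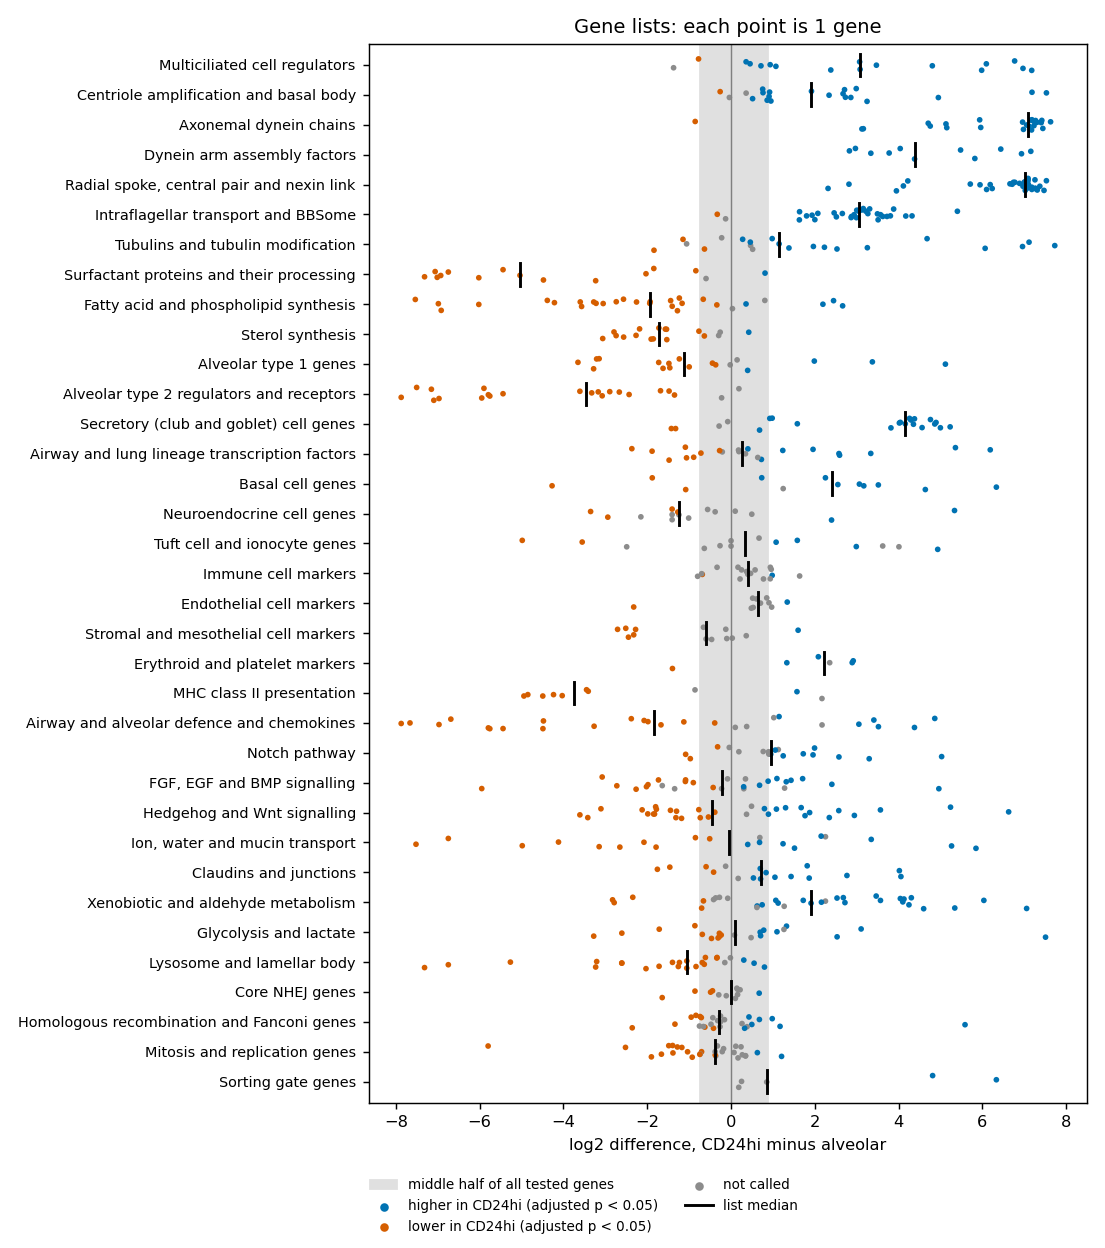
Log2 difference, CD24hi minus alveolar, of each tested gene of the 35 lists, coloured by its call at an adjusted p under 0.05, with the list median as a black bar and the interquartile range of all tested genes (-0.73 to 0.88) in grey. The medians of the dynein chains (7.08) and of the radial spoke list (7.01) lie farthest to the right and that of the surfactant list (-5.04) farthest to the left.

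Both populations also held transcripts that mark other epithelial cells. *Scgb1a1*, the major secretoglobin of club cells, was the most abundant secretory transcript of the CD24hi libraries at 90698, 69141 and 74847 RPKM and took 3.62 to 4.66% of their reads. It was lower there than in CD24lo cells, with a log2 difference of -2.94, and alveolar libraries held 3687, 4674 and 3663 RPKM. Of 23 secretory cell genes, 19 were higher and 2 lower in CD24hi than in alveolar cells (median log2 difference 4.16), and 22 were lower in CD24hi than in CD24lo cells, where 27.2% of all tested genes were lower in CD24hi and 27.8% higher. Of the basal cell transcripts, *Krt5* was at 3.41, 3.62 and 3.74 RPKM in CD24hi and 0.121, 0.840 and 0.323 RPKM in alveolar libraries and *Trp63* at 0.474, 0.979 and 1.35 RPKM against 0.131, 0.0912 and 0.0833 RPKM. The 12 genes of the basal list summed to 88.2 to 102 RPKM in CD24hi and 132 to 141 RPKM in alveolar libraries. *Ager*, the receptor that marks AT1 cells, was at 145, 67.3 and 58.9 RPKM in CD24hi and 1136, 1135 and 1148 RPKM in alveolar libraries, so that CD24hi library 1 held the most.

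Blood, vessel and connective tissue transcripts were present in both groups at low to moderate levels. Of 17 immune cell markers, 1 was higher and 1 lower in CD24hi, namely *Csf1r* and *Cd68*. The 6 libraries alone, paired or not, called 2 higher. The call of *Cd68* was lost without CD24hi library 2 or 3 or alveolar library 3 and with library size alone (log2 difference -0.37, adjusted p = 0.2045). The leukocyte marker *Ptprc* was at 0.706, 1.16 and 1.17 RPKM against 0.451, 1.22 and 0.891 RPKM. The summed level of the 17 immune markers was 36.6 to 45.5 RPKM in CD24hi and 31.1 to 60.8 RPKM in alveolar libraries, and no marker of the list was at 0 in a whole group. The 10 endothelial markers summed to 363, 158 and 94.3 RPKM in the CD24hi libraries and to 171, 244 and 199 RPKM in the alveolar libraries, which overlap. Of this list *Kdr* was higher and *Esam* lower in CD24hi, and without CD24hi library 3 the number of endothelial genes called higher went from 1 to 4. Stromal and mesothelial markers summed to 57.7 to 141 RPKM in CD24hi and 256 to 390 RPKM in alveolar libraries. Of these 13 genes 5 were lower, all of them fibroblast and matrix genes such as *Pdgfra* and *Col1a1*, and the mesothelial *Msln* was higher. For all lists of this paragraph, the shares of all genes tested were 30.5% higher and 31.4% lower, and the lower stromal count lay near the latter. None of the endothelial and stromal markers was at 0 in a whole group. Hemoglobin and platelet transcripts summed to 117, 38.9 and 32.8 RPKM in CD24hi and 11.6 to 19.3 RPKM in alveolar libraries, with 4 of 6 genes higher and 1 lower. Without alveolar library 1 or 2 the number called higher was 2, and without CD24hi library 1 it was 1. By the methods of the study, lung cells were stained for CD45, the leukocyte antigen, and CD31, an endothelial antigen, and the alveolar gate was negative for both. *Pecam1*, which encodes CD31, was nevertheless at 52.9, 24.9 and 13.3 RPKM in CD24hi and 12.1, 23.2 and 15.2 RPKM in alveolar libraries. The part of these cells in the differences described below was not tested.

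**Figure D2:**
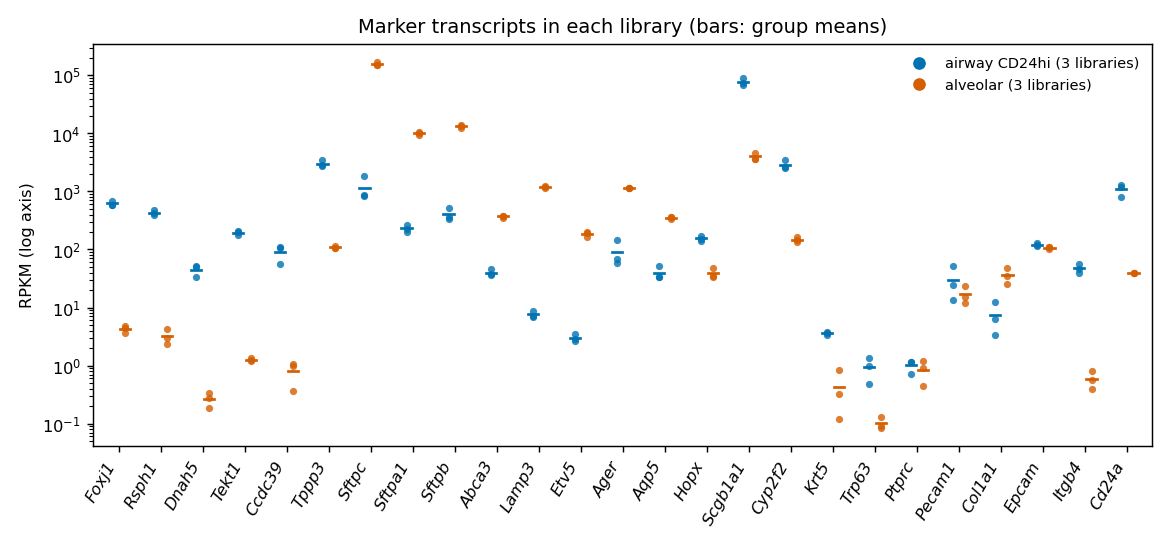
RPKM of 25 marker transcripts on a log axis, with 1 point for each of the 3 CD24hi and 3 alveolar libraries and a bar at each group mean. Cilium genes from *Foxj1* to *Tppp3* are high in CD24hi and AT2 genes from *Sftpc* to *Etv5* are high in alveolar libraries without overlap, whereas *Ptprc* and *Pecam1* overlap.

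Regulators of the multiciliated fate were higher in CD24hi cells. Of 17 such genes, 15 were higher and 1 lower (median log2 difference 3.07). *Trp73*, which encodes the p73 factor upstream of *Foxj1*, was at 43.1, 36.8 and 36.5 RPKM in CD24hi and 0.347, 0.363 and 0.208 RPKM in alveolar libraries. *Myb*, a factor of early ciliogenesis, was at 46.7, 63.6 and 65.4 RPKM against 0.443, 0.707 and 0.454 RPKM. The lowest CD24hi library exceeded the highest alveolar library many-fold for both genes, with log2 differences of 6.97 ± 0.35 and 6.77 ± 0.25 (SE). *Tppp3*, a tubulin-binding protein abundant in ciliated cells, reached 3443, 2829.9 and 2793 RPKM in CD24hi but was also at 106, 113 and 107 RPKM in alveolar libraries. Among the RFX factors, which bind the X-box of ciliary promoters, *Rfx2* differed by 3.08 and *Rfx3* by 3.07 on the log2 scale, whereas *Rfx4* stayed under 0.15 RPKM in every library and did not pass the test (adjusted p = 0.081), though it was called lower in voom (adjusted p = 0.0318) and after removal of the GC trend (adjusted p = 0.0387). *Foxj2*, a relative of *Foxj1*, was the only gene of the list that edgeR called lower with all 18 libraries and TMM scaling, at 7.48, 6.15 and 6.40 RPKM against 11.9, 11.1 and 11.3 RPKM (adjusted p = 3.4e-06). *E2f4*, a partner of the Geminin-family factors, was higher by 0.36, and this call was lost under 4 alternatives, the removal of the gene length and GC trends among them.

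*Mcidas*, one of the Geminin-family activators, was at only 1.38, 2.11 and 1.87 RPKM in CD24hi and 0.150, 0.156 and 0.172 RPKM in alveolar libraries (log2 difference 3.47 ± 0.47 SE, adjusted p = 9.4e-06). *Gmnc*, which acts upstream of *Mcidas*, was at 0.425, 0.635 and 0.790 RPKM against 0.237, 0.293 and 0.445 RPKM, with a log2 difference of 0.93 whose call was lost in voom and without CD24hi library 3 or alveolar library 1. Both genes were lower in CD24hi than in CD24lo cells, with log2 differences of -1.12 (adjusted p = 0.00553) and -3.40 (adjusted p = 1.7e-09), while *Foxj1* was higher in CD24hi than in CD24lo cells by 3.15. *Cdc20b* and *Foxn4*, also of the early programme, were higher than in alveolar cells by 5.98 and 6.09 and did not pass the test against CD24lo cells, with log2 differences of -0.81 (adjusted p = 0.064) and 0.55 (adjusted p = 0.0928). *Ccno*, a cyclin-like protein needed for basal body formation, was at 21, 20.4 and 18.8 RPKM against 3.29, 4.46 and 3.82 RPKM in alveolar cells and differed from CD24lo cells by 0.32 (adjusted p = 0.157).

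Of 21 genes of centriole amplification and the basal body, 18 were higher and 1 lower in CD24hi (median log2 difference 1.92). *Deup1*, the core protein of the deuterosome on which new centrioles form, was at 17, 19.6 and 21.5 RPKM in CD24hi and 0.146, 0.0913 and 0.0667 RPKM in alveolar libraries. *Ccdc78*, a further deuterosome protein, was at 320.2, 255 and 229 RPKM against 2.13, 2.12 and 1.22 RPKM. These deuterosome genes had the largest differences of the list, 7.53 ± 0.44 and 7.18 ± 0.42 (SE). *Cetn2* and *Cetn4* encode centrins of the basal body. *Cetn4* was at 23.4, 64.1 and 65 RPKM in CD24hi, so that library 1 lay well below the other CD24hi libraries, and at 2.0, 1.56 and 1.33 RPKM in alveolar libraries. *Cep164* of the distal appendages, which dock the basal body at the membrane, was at 37, 31.6 and 29.8 RPKM against 5.30, 3.99 and 4.27 RPKM. *Plk4*, the kinase that starts centriole duplication, was at 0.787, 1.75 and 1.55 RPKM in CD24hi and 1.29, 1.63 and 1.28 RPKM in alveolar libraries and did not pass the test (log2 difference -0.04, adjusted p = 0.898, with a sign that changed with the scaling). Neither did *Cep152* (log2 difference 0.36, adjusted p = 0.0574). *Cep152* was called higher without alveolar library 3 (adjusted p = 0.0326) and with RLE scaling, library size alone or a filter at 1 CPM (adjusted p from 0.00153 to 0.0481). *Pcnt*, a pericentriolar scaffold, was lower with a log2 difference of -0.26 (adjusted p = 0.0171), a call that was lost in a fit of the 6 libraries alone, unpaired (adjusted p = 0.131) or paired by mouse (adjusted p = 0.159), and without CD24hi library 3 or alveolar library 2.

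The dynein arms drive the beat, and their genes had the largest median difference of all 35 lists, close to 7.01 for the radial spoke list. Within mouse 6 alone the radial spoke median was the larger of the pair (7.25 against 7.11). Of 24 axonemal dynein chain genes, 23 were higher and 1 lower (median log2 difference 7.08), and all 23 differed by more than 2-fold. *Dnah5*, a heavy chain of the outer arm, was at 33.3, 49.96 and 52 RPKM in CD24hi and 0.276, 0.330 and 0.187 RPKM in alveolar libraries. *Dnah9*, a further outer arm heavy chain, was at 44.4, 44.7 and 44.4 RPKM against 0.275, 0.381 and 0.183 RPKM. The groups were far apart and the CD24hi libraries close to each other for *Dnah9*, while CD24hi library 1 was lowest for *Dnah5*. *Dnah10*, an inner arm heavy chain, had the largest difference of the list, 7.63 ± 0.47 (SE, adjusted p = 1.2e-10). The intermediate chains *Dnaic1* and *Dnaic2* differed by 6.96 and 7.05 and the inner arm light chain *Dnali1* by 7.27. The docking complex gene *Ccdc114* differed by 4.71. *Dynlrb2*, a light chain shared with the transport dynein, was the most abundant of the list at 1090.3, 1062 and 1053 RPKM and was also at 41.6, 38.6 and 38.6 RPKM in alveolar libraries. *Dnah8*, known from sperm, was also higher in CD24hi, by 3.16 on the log2 scale, but reached only 0.843, 0.686 and 0.820 RPKM there. The 1 gene that was lower was *Dnah17*, also a sperm heavy chain, at 0.228, 0.254 and 0.116 RPKM in CD24hi against 0.379, 0.414 and 0.292 RPKM. Its call (log2 difference -0.86, adjusted p = 0.0175) was not kept by 5 alternatives, leaving out CD24hi library 3 or alveolar library 2 among them. *Dnah7a* and *Dnah7b* are near-identical copies between which reads may be split, so that their levels are uncertain.

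All 11 tested cytoplasmic assembly factors of the dynein arms were higher in CD24hi (median log2 difference 4.38). The 12th gene of this list, *Dnaaf6*, did not pass the filter on low counts. *Lrrc6*, which acts in dynein preassembly, was at 45.8, 66 and 67.9 RPKM in CD24hi and 0.465, 0.530 and 0.242 RPKM in alveolar libraries (log2 difference 7.15 ± 0.33 SE, adjusted p = 4.4e-12), the largest difference of the list. Its partner *Zmynd10* was at 193, 161 and 159 RPKM against 1.76, 2.26 and 1.90 RPKM. *Cfap298*, the most abundant member, was at 257, 226 and 222 RPKM in CD24hi and still at 25.9, 22.1 and 21.7 RPKM in alveolar libraries. *Dnaaf2*, a cofactor of chaperones, had the smallest difference, 2.82.

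Each of the 34 genes of the radial spokes, the central pair, the nexin link and associated microtubule proteins was higher in CD24hi by more than 2-fold (median log2 difference 7.01). *Drc1*, a subunit of the nexin-dynein regulatory complex, was at 187, 171 and 183 RPKM in CD24hi and 0.856, 1.10 and 0.980 RPKM in alveolar libraries. *Rsph1* of the radial spoke head was at 486, 420.0 and 394 RPKM against 3.03, 4.19 and 2.34 RPKM, and *Hydin* of the central pair at 35.9, 35.6 and 36.8 RPKM against 0.296, 0.297 and 0.192 RPKM. In each of the 3 mice the alveolar level of these genes was below 1% of the CD24hi level. *Cfap126*, which positions basal bodies, was the most abundant of the list at 512, 459.5 and 448 RPKM in CD24hi and 8.18, 6.59 and 5.86 RPKM in alveolar libraries. *Ccdc40*, a ruler of axonemal repeats, and *Nme5* of the radial spoke differed by 7.37 and 6.74. *Rsph3a*, of the radial spoke, had the smallest difference of the list, 2.31, at 24.3, 19.6 and 19.3 RPKM against 4.81, 3.90 and 3.97 RPKM.

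Intraflagellar transport (IFT) carries axoneme parts along the growing cilium, and the BBSome carries membrane proteins. Of 33 such genes, 31 were higher and 1 lower in CD24hi, all 31 by more than 2-fold (median log2 difference 3.04). *Ift88*, of the anterograde complex, was at 58.5, 84.8 and 85.3 RPKM in CD24hi and 5.61, 5.20 and 4.69 RPKM in alveolar libraries. *Traf3ip1*, which encodes IFT54, had the largest difference, 5.40 ± 0.23 (SE), at 198, 195 and 189.8 RPKM against 4.96, 4.78 and 4.01 RPKM. *Ift20*, which also acts at the Golgi, did not pass the test at 116, 108 and 104 RPKM against 130.4, 114 and 114 RPKM (adjusted p = 0.19), though it was called lower after removal of the length trend (log2 difference -0.47) or the GC trend (-0.44, adjusted p = 1.1e-04 in both). *Ttc21b* (IFT139) was lower with a log2 difference of -0.33 (adjusted p = 0.00514), and the 6 libraries alone did not keep this call, unpaired (adjusted p = 0.167) or paired (adjusted p = 0.208). The call was lost with library size alone as well (log2 difference -0.0112, adjusted p = 0.934).

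Tubulins differed by isotype. Of 21 tubulin genes and tubulin-modifying enzymes, 14 were higher and 3 lower (median log2 difference 1.15). *Tubb4b*, the β-tubulin isotype of axonemes, was at 861, 699.7 and 762 RPKM in CD24hi and 168, 156 and 172 RPKM in alveolar libraries, and *Tuba1a* was at 77.3, 53.3 and 65.6 RPKM against 2.27, 2.43 and 2.98 RPKM. The polyglutamylases *Ttll6* and *Ttll9*, which add glutamate chains to axonemal tubulin, differed by 7.73 and 7.11. In the other direction, *Tubb5* was at 7.96, 5.24 and 5.47 RPKM against 13.5, 13.7 and 14.2 RPKM, and *Tubb2a* and *Tuba4a* were lower with log2 differences of -0.63 and -1.84. The exons of *Tuba4a* overlap those of its neighbour *Stk16*, and α-tubulin genes share sequence, so that their separate levels are uncertain.

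Most genes of the cilium lists were also higher in CD24hi than in CD24lo cells of the same airway gate. Of all genes tested, 27.8% were higher and 27.2% lower in this comparison. The regulator list did so least, with 9 of 17 genes higher and 3 lower and a median CD24lo level of 66.5% of CD24hi. Of 21 centriole and basal body genes 17 were higher and 2 lower, and all 11 assembly factors were higher. Of the 24 dynein chain genes 23 were higher and 1 lower than in CD24lo, of the 34 radial spoke genes all 34 were higher, and of the 33 IFT and BBSome genes 32 were higher and 1 lower. The median CD24lo level was 10.7% of the CD24hi level for dynein chains, 11% for the radial spoke list and 21.3% for IFT and BBSome genes. The median alveolar level was lower still for the axonemal lists, at 0.730% and 0.766% of CD24hi, and 12.1% for IFT and BBSome genes. Of the alveolar shares within the axoneme, those of 39 of the 58 dynein chain and radial spoke genes lay between 0.5 and 1% of CD24hi and 12 lay above 2%. All 33 IFT and BBSome genes lay above 2%. By mouse, the alveolar level of *Foxj1* was 0.696, 0.761 and 0.612% of CD24hi and that of *Rsph1* was 0.623, 0.998 and 0.594%. The club cell transcript *Scgb1a1* was at 4.06, 6.76 and 4.89% of its CD24hi level in the alveolar libraries. The alveolar level of *Dnah5* was 0.832, 0.660 and 0.360% and that of *Tekt1* 0.581, 0.686 and 0.689%, so that no mouse was highest for all of these genes.

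**Figure D3:**
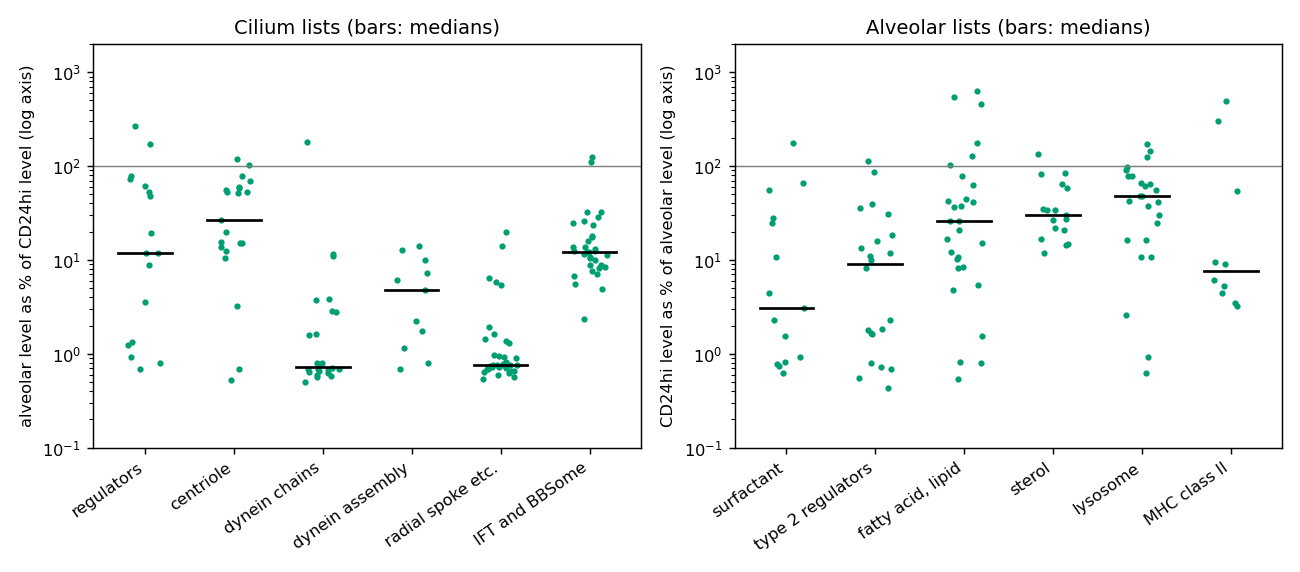
Left, mean alveolar RPKM as a percentage of mean CD24hi RPKM for each tested gene of 6 cilium lists, and right, mean CD24hi RPKM as a percentage of mean alveolar RPKM for 6 alveolar lists, both on a log axis with a bar at the list median and a line at 100%. Dynein chain and radial spoke genes gather between 0.5 and 1% (medians 0.730 and 0.766%), whereas IFT and BBSome genes all lie above 2% (median 12.1%).

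Promoter windows were examined because the cilium genes moved together. The windows were those of RefSeq on GRCm38.p6, from 250 bases before to 50 bases after the annotated start, and 13355 tested genes had one. The letters GTTGCC are the core of the X-box that RFX factors bind, and they were searched on both strands, as were the strings named next, each counted on its own. GTTGCC was found in 15% of all windows, in 23.6% of the windows of genes more than 2-fold higher in CD24hi and in 12.8% of those of genes more than 2-fold lower. In the 6 cilium lists together it was found in 52 of 117 windows (44.4%), with 7 of 8 for assembly factors, 14 of 28 for IFT and BBSome genes, 12 of 27 for the radial spoke list and 5 of 20 for dynein chains. Of the other lists, it was found in 4 of 9 windows for end joining genes, 3 of 6 for erythroid and platelet markers and 1 of 10 for surfactant genes. The forkhead letters GTAAACA were found in 5 of the 117 cilium windows and in 3.32% of all windows. The letters CCAAT, which the factor NF-Y binds, were found in all 10 windows of sterol synthesis genes and in 41.7% of all windows, as well as in all 7 of MHC class II genes and 22 of 24 of mitosis and replication genes. The letter strings were chosen with results in view, and a match is a description and not a binding site.

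The 250 bases before the start are shown for the gene with the largest difference among those of a list that hold the letters there, as examples of such windows. All are written 5′ to 3′ on the strand of the gene, with the searched letters or their reverse complement in capitals. They are *Drc1* of the radial spoke list (chr5:30281143-30281392, plus strand), *Dnah10* of the dynein chains (chr5:124724835-124725084, plus strand), *Cfap300* of the assembly factors (chr9:8042876-8043125, minus strand), *Traf3ip1* of the IFT list (chr1:91494418-91494667, plus strand) and *Dhcr7* of sterol synthesis (chr7:143829964-143830213, plus strand). GTTGCC is marked in the first 4 and CCAAT in *Dhcr7*.
Drc1: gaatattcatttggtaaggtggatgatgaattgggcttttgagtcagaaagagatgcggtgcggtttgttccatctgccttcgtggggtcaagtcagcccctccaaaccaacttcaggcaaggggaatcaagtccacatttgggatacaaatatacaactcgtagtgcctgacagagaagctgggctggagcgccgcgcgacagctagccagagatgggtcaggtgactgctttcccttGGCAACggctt
Dnah10: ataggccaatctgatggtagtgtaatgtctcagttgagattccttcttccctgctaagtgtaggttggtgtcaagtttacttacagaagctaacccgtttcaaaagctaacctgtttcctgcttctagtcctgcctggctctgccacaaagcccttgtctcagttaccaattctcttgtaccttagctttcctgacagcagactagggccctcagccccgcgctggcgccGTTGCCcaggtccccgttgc
Cfap300: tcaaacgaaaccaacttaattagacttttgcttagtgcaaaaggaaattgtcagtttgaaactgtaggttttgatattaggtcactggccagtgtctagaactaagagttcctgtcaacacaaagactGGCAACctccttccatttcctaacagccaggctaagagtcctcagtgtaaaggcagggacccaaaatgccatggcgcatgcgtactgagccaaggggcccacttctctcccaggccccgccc
Traf3ip1: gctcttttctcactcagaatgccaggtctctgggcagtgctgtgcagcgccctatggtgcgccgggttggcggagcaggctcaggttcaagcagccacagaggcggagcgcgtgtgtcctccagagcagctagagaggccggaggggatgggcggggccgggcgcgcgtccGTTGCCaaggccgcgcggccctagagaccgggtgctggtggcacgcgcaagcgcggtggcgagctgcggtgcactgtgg
Dhcr7: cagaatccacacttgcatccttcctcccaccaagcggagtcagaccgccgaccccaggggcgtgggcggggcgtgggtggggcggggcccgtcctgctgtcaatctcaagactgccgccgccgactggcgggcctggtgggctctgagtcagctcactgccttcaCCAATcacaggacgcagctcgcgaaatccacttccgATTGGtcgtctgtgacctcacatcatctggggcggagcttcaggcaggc
The match in *Drc1* lay 5 bases before the annotated start and that in *Dnah10* 14 bases before it. In *Traf3ip1* 73 bases lay between the match and the start, and in *Cfap300*, whose levels were 28.2, 50.1 and 58.4 RPKM in CD24hi and 2.32, 2.37 and 1.84 RPKM in alveolar libraries, 116 bases. *Dhcr7* held CCAAT on both strands, 80 and 44 bases before the start.

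Surfactant genes were lower in CD24hi than in alveolar cells. Of 15 surfactant proteins and proteins of their processing, storage and turnover, 13 were lower and 1 higher (median log2 difference -5.04). *Sftpb*, which spreads lipid at the air surface, was at 517, 359 and 336 RPKM in CD24hi and 14086, 12449 and 13248 RPKM in alveolar libraries. *Sftpa1*, a collectin of surfactant, was at 263, 202 and 229 RPKM against 10259, 9431 and 10515 RPKM and the collectin *Sftpd* at 253, 182 and 203 RPKM against 4759, 4459.8 and 4979.9 RPKM. The CD24hi level was highest in library 1 for each of these genes, and the groups were far apart. *Abca3*, the lipid transporter of the lamellar body, differed by -3.23, its membrane protein *Lamp3* by -7.31 and the protease *Napsa*, which matures surfactant protein B, by -6.93. *Csf2ra* was the exception. This subunit of the GM-CSF receptor was at 34.5, 25.5 and 19.6 RPKM in CD24hi and 16.1, 16.6 and 12.7 RPKM in alveolar libraries (log2 difference 0.81 ± 0.22 SE, adjusted p = 0.00394), while its partner *Csf2rb* did not pass the test. *Csf2rb* was called lower after removal of the GC trend, alone (adjusted p = 0.0435) or with pairing by mouse (adjusted p = 0.00883). *Pgc*, the zymogen pepsinogen C, was at 2.13, 1.66 and 1.42 RPKM in CD24hi and 2.93, 2.93 and 3.50 RPKM in alveolar libraries and was called lower, but the call was lost on leaving out any 1 library other than CD24hi library 1.

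The residual level of alveolar transcripts in the CD24hi libraries differed between genes, and which cells carried them was not tested. The CD24hi level of *Sftpc* was 1.22, 0.549 and 0.507% of the alveolar level in mice 4, 5 and 6, and that of *Lamp3* was 0.556, 0.598 and 0.736%. *Sftpb* was at 3.67, 2.88 and 2.53%, *Sftpd* at 5.31, 4.08 and 4.07% and the AT1 marker *Ager* at 12.8, 5.93 and 5.13%. Of 37 surfactant and AT2 genes, 10 had a CD24hi level under 1% of the alveolar level.

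Lipid synthesis followed surfactant in direction. Of 29 genes of fatty acid and phospholipid synthesis, 23 were lower and 4 higher in CD24hi (median log2 difference -1.94). *Scd1*, the desaturase, was at 24.6, 20.5 and 19.9 RPKM in CD24hi and 2903, 2264 and 3072 RPKM in alveolar libraries, and *Fasn*, the fatty acid synthase, at 14.2, 11.4 and 11.9 RPKM against 233, 217 and 246 RPKM. *Acly* and *Acaca*, which supply the carbon units, differed by -2.74 and -3.05, and *Lpcat1*, which makes the dipalmitoyl lipid of surfactant, by -6.02. *Acoxl*, an acyl-CoA oxidase-like gene, had the largest difference of the list, -7.54 ± 0.30 (SE), followed by *Scd1* (-6.99) and the fatty acid carrier *Fabp5* (-6.92). *Elovl1*, for chain elongation, was at 66.9, 49.3 and 46.7 RPKM in CD24hi against 1255, 1115 and 1033 RPKM in alveolar libraries, and *Cd36*, for fatty acid uptake, had a log2 difference of -3.60. The 4 genes that were higher were *Dgat2* of triglyceride synthesis, *Pemt* of phosphatidylcholine synthesis by methylation, *Elovl6* and *Pcyt1a*. *Dgat2* was at 15.4, 14.3 and 14.3 RPKM in CD24hi and 2.66, 2.37 and 1.88 RPKM in alveolar libraries and *Pemt* at 10.5, 9.15 and 9.15 RPKM against 2.01, 1.32 and 1.94 RPKM. *Pcyt1a*, the regulated enzyme of the choline pathway, differed by only 0.36, a call that was lost after removal of the GC trend. *Chpt1* and *Chkb* of the same pathway did not pass the test, and without CD24hi library 1 *Chpt1* did (log2 difference 0.32).

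Sterol synthesis genes were lower as well, in 14 of 17 cases with 1 higher and a median log2 difference of -1.72. *Dhcr7*, of the last step, was at 2.71, 1.42 and 1.31 RPKM in CD24hi and 17.8, 12.1 and 15.6 RPKM in alveolar libraries (log2 difference -3.06 ± 0.23 SE, adjusted p = 2.0e-09), and *Fdps*, an enzyme of isoprenoid chain synthesis, differed by -2.74. *Hmgcs1*, of an early step, did not pass the test (adjusted p = 0.14). It was called lower after removal of the length trend (-0.44) or the GC trend (-0.58), the latter also paired by mouse (adjusted p from 0.00217 to 0.0341). *Sqle* was higher by 0.42, a call that was lost after removal of the GC or length trend and without alveolar library 2. The lipid regulator *Srebf1* was at 51.5, 36.6 and 39.3 RPKM against 105, 91.3 and 104 RPKM, and its escort *Scap* was lower with a log2 difference of -0.34, a call lost in the 6 libraries alone, unpaired (adjusted p = 0.0854) or paired (adjusted p = 0.0946), and without CD24hi library 2. With library size alone the call of *Scap* was lost too (log2 difference -0.0225, adjusted p = 0.8785).

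Of 25 genes of the lysosome and lamellar body, 20 were lower and 3 higher in CD24hi (median log2 difference -1.06). *Ctsc* and *Ctsh*, lysosomal proteases, differed by -5.27 and -2.03, and *Npc2*, which carries cholesterol out of the lysosome, was at 154, 127 and 126 RPKM against 1243, 1187 and 1329 RPKM. *Ctsd*, the general aspartic protease, was higher in CD24hi at 338, 280.3 and 287 RPKM against 174, 169 and 177 RPKM.

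None of 22 further genes of AT2 identity was higher in CD24hi and 20 were lower (median log2 difference -3.47). *Etv5*, the ETS factor that maintains AT2 cells, was at 3.46, 2.91 and 2.65 RPKM in CD24hi and 193, 166 and 199 RPKM in alveolar libraries. *Nkx2-1*, the lung lineage factor that airway and alveolar cells share, was at 75.3, 63.9 and 65.9 RPKM against 203, 182 and 187 RPKM, and *Cebpa* at 40.9, 31.5 and 32.9 RPKM against 223, 199 and 246 RPKM. *Foxa2*, also shared, was at 45.5, 43.3 and 41 RPKM against 38, 34.6 and 41.3 RPKM and did not pass the test (adjusted p = 0.0727), with a sign that turned after removal of the length or GC trend and a call as higher without alveolar library 3 (adjusted p = 0.0268), in the 6 libraries alone and with RLE scaling, library size alone, voom or DESeq2 (adjusted p from 1.1e-04 to 0.0443). *Erbb3* did not pass either, but was called lower after removal of the length or GC trend, the latter also paired by mouse (adjusted p from 0.00381 to 0.0452). *Egfl6*, a secreted matrix protein, and the lysozymes *Lyz1* and *Lyz2* were lower with log2 differences of -7.50, -7.87 and -6.97, and the lysozyme genes are close copies whose reads may be split. *Cxcl15*, the lung chemokine lungkine, was at 94.6, 93.9 and 102 RPKM against 5673, 4927 and 5471 RPKM.

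Of 18 AT1 genes 12 were lower and 4 higher in CD24hi (median log2 difference -1.12), against 31.4% and 30.5% of all genes tested. The higher count thus lay below the share of all genes. *Aqp5*, a water channel of AT1 and AT2 cells, was at 52.9, 33.2 and 33.5 RPKM in CD24hi and 365, 339 and 357 RPKM in alveolar libraries, *Col4a3* of the alveolar basement membrane differed by -3.28 and *Ager* by -3.65. *Hopx*, *Igfbp2*, *Sema3e* and *Clic5* were higher in CD24hi. *Hopx*, a homeodomain protein used as an AT1 marker whose exons partly overlap an antisense gene, was at 173, 150.1 and 141 RPKM in CD24hi and 34.7, 48.7 and 33.7 RPKM in alveolar libraries. The growth factor binding protein *Igfbp2* was at 80.004, 55.7 and 47.5 RPKM against 6.43, 6.64 and 4.55 RPKM and the guidance factor *Sema3e* at 24.7, 40.7 and 42.9 RPKM against 0.976, 1.35 and 0.780 RPKM. These 3 genes were also higher in CD24hi than in CD24lo cells, by 0.72, 2.66 and 2.13 on the log2 scale. *Clic5* was higher by only 0.40, a call that was lost after removal of the GC trend, and *Cav1* and *Spock2* did not pass the test.

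Of 22 lineage transcription factors 9 were higher, 8 lower and 5 did not pass the test, against 30.5% higher and 31.4% lower over all genes tested, so that the counts lay near the background. *Sox2*, the factor of the conducting airway, was at 30.4, 34.4 and 33.3 RPKM in CD24hi and 0.897, 0.936 and 0.534 RPKM in alveolar libraries. It did not pass the test against CD24lo cells, with a log2 difference of -0.36 (adjusted p = 0.0679). *Sox9*, a factor of the distal lung bud, stayed near 1 RPKM in CD24hi and was higher than in alveolar cells by 3.33. In the other direction *Irx2* and *Elf5* were lower with log2 differences of -1.88 and -2.37, and *Elf5* was at 8.27, 5.54 and 6.90 RPKM against 37.1, 34 and 35.7 RPKM.

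Notch signalling separates secretory from multiciliated fates. Of 19 tested genes of the pathway 10 were higher and 3 lower in CD24hi (median log2 difference 0.95), against 30.5% and 31.4% of all genes tested. *Lfng*, a glycosyltransferase that tunes the receptor, was at 45.4, 38.7 and 37.6 RPKM in CD24hi and 0.772, 1.77 and 1.19 RPKM in alveolar libraries. Of the ligands, *Jag2* was at 51.2, 43.6 and 44.8 RPKM against 4.56, 4.86 and 4.78 RPKM and *Jag1* at 49.4, 58.7 and 61.5 RPKM against 14.1, 14.3 and 14.2 RPKM. Against CD24lo cells 9 genes of the pathway were lower in CD24hi and 4 higher, beside 27.2% and 27.8% of all genes, and *Lfng*, *Jag2* and *Jag1* were among the latter, by 2.57, 1.75 and 1.36. The target genes *Hey1* and *Hes1* were higher than in alveolar cells by 2.57 and 1.96 but did not pass the test against CD24lo cells, with log2 differences of 0.18 (adjusted p = 0.239) and -0.50 (adjusted p = 0.241). *Notch2*, the receptor, did not pass the test (log2 difference -0.04), with a sign that changed with the scaling. It was called higher with library size alone (0.28, adjusted p = 0.0311) and lower after removal of the length trend (-0.32, adjusted p = 0.042). The coactivator *Maml1* was lower with a log2 difference of -1.08.

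Of 27 genes of FGF, EGF and BMP signalling 9 were higher and 11 lower, against 30.5% and 31.4% of all genes tested. The receptor *Fgfr2*, which responds to FGF7 and FGF10, was at 21.8, 21 and 22 RPKM in CD24hi and 191, 177 and 179 RPKM in alveolar libraries, and the feedback inhibitor *Spry2* at 10.1, 9.76 and 9.04 RPKM against 38, 39 and 40.2 RPKM. *Bmp4* was lower with a log2 difference of -2.73, whereas *Id1*, a target of BMP signals, was higher by 2.41. Of the EGF family ligands, *Nrg1* was at 10.4, 9.12 and 9.80 RPKM against 0.293, 0.263 and 0.384 RPKM and *Areg* at 207, 242 and 219.7 RPKM against 83.7, 93.1 and 91.5 RPKM.

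Of 32 hedgehog and Wnt genes 13 were higher and 17 lower, beside the same shares of all genes. *Wnt11* was at 91.9, 71.3 and 68.7 RPKM in CD24hi and 0.664, 1.02 and 0.652 RPKM in alveolar libraries, and *Wnt4* and *Wnt5a* differed by 5.24 and 3.56. Planar polarity genes, which orient cilia, were split: *Prickle2* and *Vangl1* were higher by 2.57 and 2.34, whereas *Vangl2* was lower at 0.902, 0.656 and 0.313 RPKM against 1.99, 1.43 and 1.21 RPKM. In alveolar cells *Axin2*, a target of canonical Wnt signals, was at 11.7, 9.74 and 11.4 RPKM against 1.35, 0.730 and 0.609 RPKM in CD24hi, the ligand *Wnt3a* at 2.56, 2.47 and 2.71 RPKM against 0.383, 0.188 and 0.143 RPKM and the receptor *Fzd2* at 4.93, 4.74 and 5.87 RPKM against 0.998, 0.449 and 0.347 RPKM. *Shh* was at 10.5, 9.44 and 9.61 RPKM in CD24hi and 7.67, 7.62 and 7.61 RPKM in alveolar libraries, so that the groups did not overlap, but it did not pass the test in the fit of 18 libraries (adjusted p = 0.0794) and passed it in the 6 libraries alone, unpaired (adjusted p = 0.00505) or paired (adjusted p = 0.0167), and in the 12 lung libraries, voom, DESeq2 and with library size alone (adjusted p from 0.00255 to 0.0491).

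**Figure D4:**
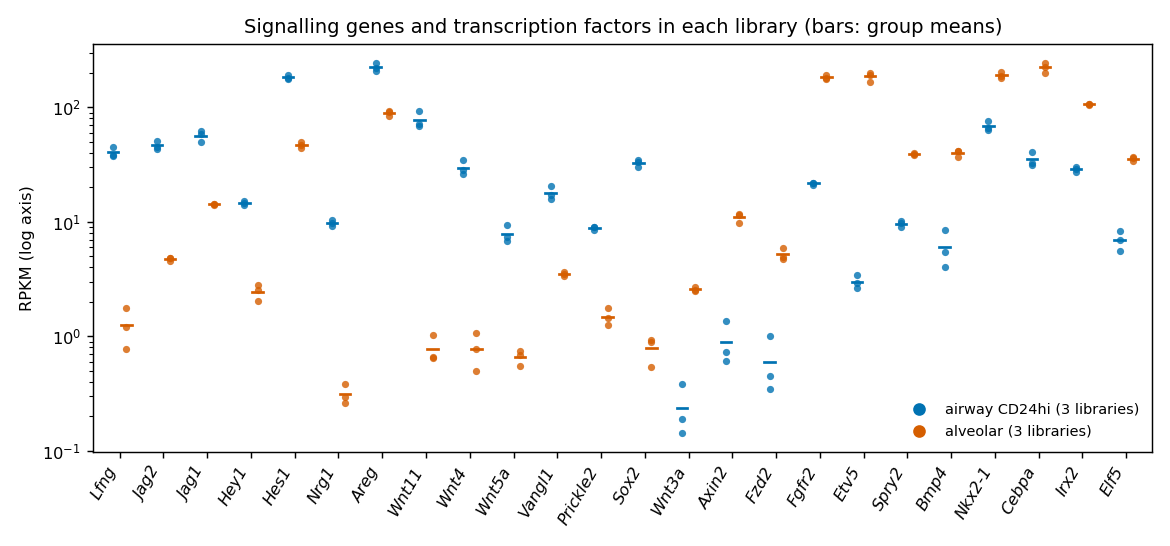
RPKM of 24 signalling genes and transcription factors on a log axis, with 1 point for each of the 3 CD24hi and 3 alveolar libraries and a bar at each group mean. Genes from *Lfng* to *Sox2* are higher in all 3 CD24hi libraries and genes from *Wnt3a* to *Elf5* are higher in all 3 alveolar libraries.

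MHC class II presentation was lower in CD24hi in 7 of 10 genes and higher in 1 (median log2 difference -3.74). The invariant chain *Cd74* was at 128, 74.7 and 60.1 RPKM in CD24hi and 2605, 2629.6 and 2861 RPKM in alveolar libraries, the class II chain *H2-Aa* at 52.2, 34.9 and 29.9 RPKM against 1089, 1094 and 1194 RPKM and the class II transactivator *Ciita* at 0.822, 0.468 and 0.373 RPKM against 9.19, 8.52 and 9.56 RPKM. All 3 genes were highest among the CD24hi libraries in library 1, whose list sum of 281 RPKM compares with 168 and 140 RPKM in libraries 2 and 3 and with 4889 to 5335 RPKM in alveolar libraries. *H2-Ob*, an inhibitor of peptide loading known from B cells, was the gene that was higher, at 1.58, 1.30 and 1.06 RPKM against 0.462, 0.620 and 0.227 RPKM, and this call was lost in voom and without CD24hi library 1 or alveolar library 3. Of 26 defence genes and chemokines 16 were lower and 6 higher. Beside this list and the MHC class II list, 31.4% of all genes tested were lower and 30.5% higher. *Il33*, an alarmin, was at 0.783, 0.768 and 1.06 RPKM in CD24hi and 179, 162 and 188 RPKM in alveolar libraries, and the iron-binding *Lcn2* and the chitinase-like *Chil1* differed by -6.69 and -5.76. *Bpifa1*, an airway secretory protein, and the chemokine *Cxcl17* were higher by 4.38 and 3.52. *Bpifa1* varied widely among CD24hi libraries, at 1194, 479.8 and 923 RPKM, and was lower there than in CD24lo cells with a log2 difference of -3.37.

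Of 20 tested genes of ion, water and mucin transport 8 were higher and 10 lower, against 30.5% and 31.4% of all genes tested. *Cftr*, the chloride channel, was at 0.455, 0.540 and 0.586 RPKM in CD24hi and 15.6, 16.3 and 18.2 RPKM in alveolar libraries (log2 difference -4.98 ± 0.15 SE, adjusted p = 5.6e-14). The anion exchangers *Slc26a4* and *Slc26a9* differed by -7.52 and -4.12 and the phosphate transporter *Slc34a2* by -6.75. *Aqp4*, a water channel of airway cells, was at 4.94, 8.44 and 11.1 RPKM against 0.104, 0.199 and 0.119 RPKM, and the sodium channel subunit *Scnn1a* at 191, 177 and 175 RPKM against 73.8, 77.3 and 78.8 RPKM. Of 17 claudins and junction genes 11 were higher and 4 lower, against the same shares. *Cldn4* was at 139, 164 and 106 RPKM in CD24hi and 8.17, 10.4 and 6.02 RPKM in alveolar libraries, and *Cldn18*, whose lung isoform seals the alveolar epithelium, at 115, 113 and 109.7 RPKM against 313, 294 and 324 RPKM. *Cldn18* was nevertheless higher in CD24hi than in CD24lo cells, by 1.86 (adjusted p = 1.6e-06).

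Xenobiotic metabolism was higher in CD24hi in 21 of 33 genes and lower in 5 (median log2 difference 1.91), against 30.5% and 31.4% of all genes tested. *Cyp2s1*, a cytochrome P450 of epithelia, was at 1258, 1083 and 1082 RPKM in CD24hi and 9.21, 9.62 and 6.89 RPKM in alveolar libraries, and *Aldh3b1*, an aldehyde dehydrogenase, at 659, 516 and 541 RPKM against 15.5, 13.7 and 13.1 RPKM. Against CD24lo cells 26 genes of this list were lower in CD24hi and 4 higher (27.2% and 27.8% of all genes), among them *Cyp2s1* and *Aldh3b1*, by 3.12 and 3.08. *Cyp2f2*, the club cell cytochrome, was higher than in alveolar cells by 4.30 and lower than in CD24lo cells, with a mean of 2893 RPKM against 11594 RPKM there. *Cyp2b10* differed from alveolar cells by 2.72. *Sult1a1*, a conjugating enzyme with the largest fall of the list, was at 6.44, 5.41 and 5.40 RPKM in CD24hi against 37.3, 40.5 and 44.8 RPKM, and *Gstt1* had a log2 difference of -2.79. Of 21 glycolytic genes 8 were higher and 10 lower (30.5% and 31.4% of all genes), and the lower count was 5 with library size alone, in the 6 libraries alone, paired or not, and without CD24hi library 2 and 6 without CD24hi library 3. *Eno4*, the enolase of sperm and cilia, was at 123, 112 and 116 RPKM against 0.618, 0.860 and 0.433 RPKM and the glucose carrier *Slc2a1* at 63.6, 55.2 and 55 RPKM against 10.3, 8.94 and 10.8 RPKM, while *Aldoc* was lower with a log2 difference of -3.28.

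Of 15 neuroendocrine genes 2 were higher and 4 lower, with 2 lower in the 6 libraries alone, paired or not, and 1 without alveolar library 1, and *Uchl1*, a ubiquitin hydrolase of neuroendocrine cells that is not confined to them, was at 25.3, 20.2 and 17.3 RPKM in CD24hi and 0.691, 0.722 and 0.0880 RPKM in alveolar libraries, while the other members stayed under 2.5 RPKM in these libraries. Of 14 tuft cell and ionocyte genes 4 were higher and 2 lower, *Cftr* among the latter. For both lists the shares of all genes were 30.5% higher and 31.4% lower. Of 12 basal cell genes 8 were higher and 3 lower, beside the same shares of all genes. *Itgb4*, by which the gate was set, had the largest difference of that list, and the lowest log2 difference in it was -4.27.

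Of 12 core genes of non-homologous end joining 1 was higher and 4 lower (median log2 difference -0.01, and -0.18 without CD24hi library 1), the latter near the 31.4% of all genes. *Xrcc6*, which encodes the Ku70 subunit, was at 6.11, 4.70 and 5.29 RPKM in CD24hi and 15.9, 17.9 and 16.5 RPKM in alveolar libraries, and *Xrcc4* of the ligase complex was higher by 0.67, a call that was lost after removal of the length trend. The counts of this list depended on the scaling, with 6 higher and 2 lower by library size alone. Of 26 homologous recombination and Fanconi genes 7 were higher and 8 lower, also near the shares of all genes, with 5 lower in the 6 libraries alone and 4 when these were paired, and *Xrcc2* was lower with a log2 difference of -2.36. Of 29 mitosis and replication genes 14 were lower and 2 higher, beside 31.4% and 30.5% of all genes tested. The higher count was 4 without alveolar library 2 and 1 in the 6 libraries alone, paired or not, and without any 1 of 4 other libraries. The median log2 difference was -0.38, with -0.67 without alveolar library 1 and -0.66 without alveolar library 3. *Mki67* was at 0.210, 0.551 and 0.226 RPKM against 0.735, 1.64 and 0.761 RPKM, the replicative helicase subunit *Mcm5* was lower with a log2 difference of -2.52 and the mitotic motor *Kif11* was higher by 1.21.

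*Fanca* and *Bub1* were singled out after their values were seen. *Fanca*, of the Fanconi core complex, was at 11, 10.1 and 9.65 RPKM in CD24hi and 0.233, 0.223 and 0.178 RPKM in alveolar libraries (log2 difference 5.58 ± 0.31 SE, adjusted p = 4.2e-11), against a median log2 difference of -0.29 for its list. It lies at chr8:123266294-123318651, and *Spire2*, which lies 14061 bases from it, was at mean levels of 39.5 RPKM in CD24hi and 0.435 RPKM in alveolar libraries, a log2 difference of 6.48. *Zfp276*, which overlaps the exons of *Fanca* in part, was at mean levels of 6.33 and 6.36 RPKM. *Bub1*, the spindle checkpoint kinase, was at 0.0348, 0.137 and 0.0907 RPKM in CD24hi and 5.18, 5.01 and 4.68 RPKM in alveolar libraries (log2 difference -5.80 ± 0.28 SE, adjusted p = 7.5e-12), while the next lowest gene of its list was *Mcm5*. It lies at chr2:127800197-127831859, and *Acoxl*, the gene with the largest difference of the lipid list, lies 6937 bases from it. Both genes thus neighbour a gene that differed in the same direction, and whether reads of a neighbour were counted for them was not tested.

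Outside the lists, the largest differences were found by rank among called genes with at least 10 CPM in 1 of the groups and no overlap of the libraries, leaving out symbols of predicted genes. On the CD24hi side, *Cryaa*, the α-crystallin of the lens, was at 17.5, 12.3 and 15 RPKM and had no read in any alveolar library, and was thus at least 62.5-fold higher against a floor of 3 reads per library. *A930003A15Rik*, a gene of no assigned function named from the ranking of all genes, was in the same way at least 38-fold higher. *Cidea*, a lipid droplet protein, was at 15.3, 13.3 and 12.3 RPKM against 0.0757, 0 and 0 RPKM, *Calcoco2*, an autophagy receptor, at 8.05, 8.90 and 10.5 RPKM against 0.0566, 0 and 0 RPKM and the kallikrein *Klk11* at 27.5, 26.9 and 23 RPKM against 0.0608, 0.127 and 0.0696 RPKM. The cilia and flagella associated genes *Cfap46*, *Cfap77* and *Cfap97d2* differed by 7.95, 7.82 and 7.85 and were in none of the cilium lists. *Ccna1*, the cyclin A of the germ line, was at 9.20, 12.4 and 9.64 RPKM in CD24hi and 0.0563, 0.0588 and 0 RPKM in alveolar libraries. *Xrra1*, *Sec14l5*, *Ankrd65* and *Dydc1* completed the list, with log2 differences from 7.78 to 8.20.

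On the alveolar side, the receptor tyrosine kinase *Ros1* was at 3.33, 4.38 and 3.72 RPKM in alveolar libraries and 0.0204, 0 and 0 RPKM in CD24hi. The vasopressin receptor *Avpr1a* was at 5.87, 4.93 and 6.27 RPKM against 0, 0.0277 and 0 RPKM and *Sp5*, a transcription factor that responds to Wnt signals, at 12.4, 10.4 and 11 RPKM against 0.0720, 0.0353 and 0 RPKM. Each had no read in at least 1 CD24hi library. *Bex4* was more abundant, at 185, 170.3 and 201 RPKM in alveolar libraries against 0.963, 0.472 and 0.602 RPKM in CD24hi, as was *Nrn1*, a neuritogenesis factor, at 103, 95.9 and 94.7 RPKM against 0.473, 0.418 and 0.493 RPKM. *Tg*, the thyroglobulin gene, was at 1.58, 1.33 and 1.70 RPKM against 0.00894, 0.00878 and 0 RPKM. The sphingosine-phosphate phosphatase *Sgpp2* and the cystatin *Cst8* were lower in CD24hi with log2 differences of -7.45 and -7.68, and *Itih1*, *Fabp12*, *Tmem132d* and *Phf24* with -8.00, -7.80, -7.62 and -7.36.

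**Figure D5:**
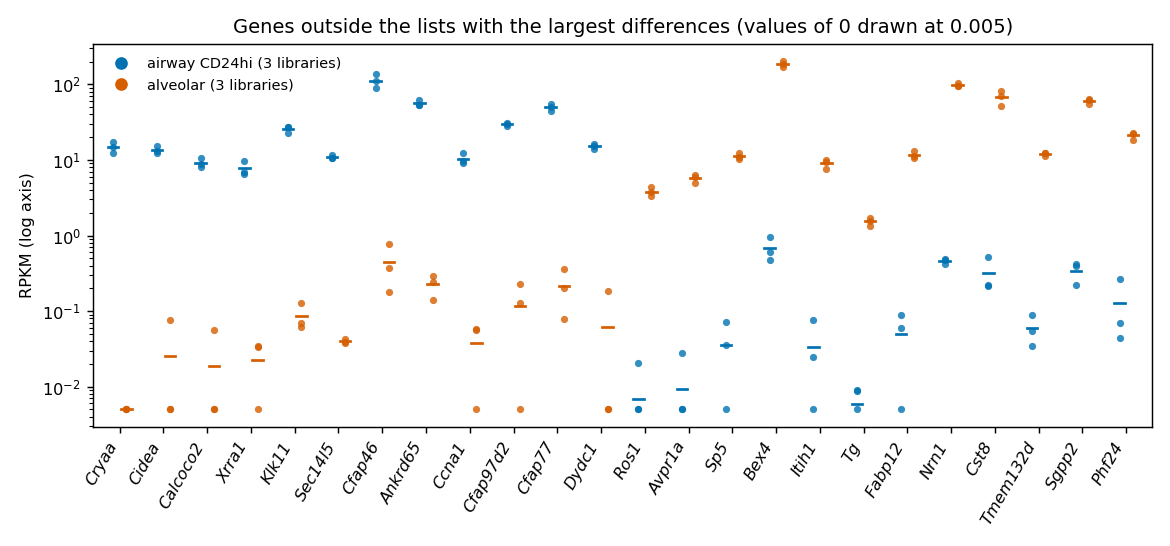
RPKM on a log axis of the 12 genes with the largest rise and the 12 with the largest fall from alveolar to CD24hi cells among named genes in none of the lists, with 1 point for each of 3 libraries per group, a bar at each group mean and values of 0 drawn at 0.005. No gene overlaps between the groups, which the rule that named them required.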

How the data were processed

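RNA was sequenced from FACS-sorted mouse lung and tracheal cells in 18 libraries, 3 of each of 6 populations, as single-end reads, and the 6 CD24hi and alveolar libraries are reported. The authors made base calls with bcl2fastq 1.8.4 per the labels, aligned reads to the mouse genome mm10 with Rsubread and assigned them to RefSeq genes with featureCounts. The values they deposited are raw counts of reads per Entrez gene for 27179 genes, without normalisation. Whether strand was used in counting is not given in the sources used here, so reads of overlapping genes cannot be told apart by strand, and reads of near-identical genes may be split. The counts had no rows that name no gene and no unmapped sample columns (0 of each), and 25275 identifiers had a symbol.

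RPKM was computed here from the counts, the gene length and TMM-scaled library sizes. Genes above 0.2 CPM in at least 3 libraries were tested with edgeR 4.0.16 in R 4.3.3. A quasi-likelihood fit of all 18 libraries with 6 population means shared 1 estimate of the spread, and p-values were adjusted over 17989 genes after Benjamini and Hochberg, with a threshold of 0.05. glmTreat tested for a difference of more than 2-fold. An adjusted p in the text is from edgeR unless voom or DESeq2 is named. The alternatives used limma 3.58.1 (voom), DESeq2 1.42.0, other scalings, filters, samples and a block for the mouse, while the removal of a GC trend, alone or with the block, and the omission of both libraries that stood apart were added after seeing the data. GC content was known for 16076 tested genes (89.4%). The main fit, glmTreat, the mouse block, the trend removals, voom and DESeq2 were run on simulated counts in which some genes were shifted in CD24hi by known amounts. These counts held no mouse effect and no GC or length trend, so the correction of such effects was not tested. The other scalings, filters and choices of samples were not run on simulated counts.

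CD24hi and alveolar libraries of the same number come from the same mouse by the labels. Their deviations from the group means correlated with r = 0.022, 0.075 and 0.056 for mice 4, 5 and 6, against -0.057 to 0.002 for unlike mice. The p-values rest on the spread between libraries within the 6 populations of the fit.

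The comparison and the gene lists were chosen with earlier results of these data known, and the libraries were taken by their titles. Genes named within a list are those with the highest level, the largest and smallest difference and the opposite direction, with well-known members, and by rank the 12 called genes at 10 CPM or more without overlap that differ most each way, over all genes and again among genes in no list whose symbol is not that of a predicted gene (Gm number, Rik or LOC). Of the former, *A430108G06Rik*, *Gm5737*, *Gm20755* and *Gm6213* are not described further. A fold against a group without reads uses a floor of 3 reads per library, which covers counting error only. Some list members are counted but not reported by name here. Promoter sequences are from RefSeq on GRCm38.p6.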

Additional observations from a re-analysis of the deposited data

How the results depend on the processing

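The counts of called genes kept within 1.5 times of 11131 under all 19 alternatives, between 9237 and 11824, and between 10229 and 11269 when 1 library was left out. The fit of the 6 libraries alone, without pairing, called 9819 genes, 4545 rather than 4899 of more than 2-fold. With the mouse as a replicate block in these 6 libraries, 9237 genes were called (5049 higher, 4188 lower), 4184 of more than 2-fold. *Pcnt*, *Ttc21b* and *Scap* lost their calls and *Shh* gained one in the 6 libraries both with and without the block. Among the 213 named genes the block itself changed only the calls of *Foxa2*, lost with it, and *Dnah17*, regained with it. Of 196 named genes that were called, 182 kept direction and call under every alternative. The share of calls that were higher was 65.4% with library size alone and 38.8% after removal of the length trend. The median of all genes moved to 0.29, -0.23 and -0.21 with library size alone, the length trend and the GC trend removed, and genes with small differences turned in sign with it. With library size alone *Plk4* (0.28), *Pcnt* (0.057), *Ift20* (0.19), *Hmgcs1* (0.0255), *Erbb3* (0.0921), *Spock2* (0.29) and *Notch2* (0.28) turned positive. *Plk4*, *Spock2* and *Notch2* also did in the 6 libraries alone (0.0624, 0.0598 and 0.0498) and with the replicate block (0.0017, 0.0541 and 0.0459), and *Plk4* did without both libraries that stood apart (0.36). *Epcam* (-0.14), *Chpt1* (-0.0919), *Foxa2* (-0.14) and *Cav1* (-0.11) turned negative after removal of the length trend. The last 3 did so after removal of the GC trend (-0.10, -0.0171 and -0.12) and with the block as well (-0.11, -0.0087 and -0.10), and *Chpt1* did in voom (-0.0548). On leaving out 1 library, *Plk4* ranged from -0.26 to 0.24, *Cav1* from -0.10 to 0.40, *Chpt1* from -0.18 to 0.32, *Spock2* from -0.23 to 0.15 and *Ptprc* from -0.0657 to 0.61. Counts within lists of small differences moved too: with library size alone 6 rather than 1 end joining genes were higher and 2 rather than 4 lower, 4 rather than 8 recombination genes were lower, and 2 rather than 4 claudin and junction genes were lower. After removal of the length trend 8 rather than 5 stromal genes and 7 rather than 4 neuroendocrine genes were lower and 3 rather than 7 recombination genes were higher, and after removal of the GC trend 13 recombination and 4 rather than 2 secretory genes were lower. No cause was tested. *Rfx4* stayed under 0.15 RPKM, so that its difference was estimated from few reads.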
